A study of Mus musculus with 4 samples.

Results

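The genes described here are NRF2 targets and antioxidant enzymes, chosen by name from a list of 31 genes that covers quinone reduction, glutathione supply, glutathione peroxidases, the thioredoxin and peroxiredoxin system, superoxide dismutases, catalase and the NADPH-making pentose phosphate pathway, without the glutathione transferases. Of the 31 genes, 30 were matched to a probe, out of 16862 named genes with a usable probe on all 4 arrays. Cbr1, which encodes a carbonyl reductase, had no probe matched through its accession and was not analysed here. The brightest probe of each gene, by its mean log2 signal over the arrays, stands for the gene.

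NRF2, the product of Nfe2l2, is a transcription factor that the adaptor protein KEAP1 holds in the cytoplasm and feeds to a CUL3 ubiquitin ligase. Oxidants and electrophiles modify KEAP1, NRF2 then accumulates in the nucleus, and with small MAF proteins it binds antioxidant response elements near genes for detoxification, glutathione synthesis and NADPH supply. In skin the pathway is known for protecting keratinocytes against ultraviolet light and chemicals.

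Mouse skin was taken 48 h after a photodynamic treatment, in which light acts on a photosensitiser and makes reactive oxygen species. Methyl aminolevulinate cream, from which cells build the photosensitiser protoporphyrin IX, was put on the tail or on the shaved back, and after 2.5 h in the dark red light of 636 nm was given at 10 J/cm2 to the tail and 2.5 J/cm2 to the back. The groups were tail control and back control, both labelled as having no treatment, and tail treated and back treated, each planned with 3 animals, and each represented by 1 one-colour array of total RNA. Strain, age and sex are not in the sources used here, nor is it stated whether the animals of a group were pooled, whether controls received cream or light alone, or whether the back controls were shaved. The protocol speaks of tail epidermis where the labels say tail skin.

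With 1 array per group no difference below was replicated or tested, and all values compare single arrays. Levels are log2 of the processed signal minus the array's 75th percentile, so that 0 is the 75th percentile. The call for higher or lower needed a 2-fold difference, or 1 on the log2 scale. The scanner's own error of a difference had a median of 0.204, which covers the spots and not the animals. The tail control array was far brighter than the others, with a 75th percentile of 7261 against 909, 1860 and 1204 on the tail treated, back control and back treated arrays. On that array 12 of the 30 genes were saturated, against 3, 4 and 1 on the others in the same order. A saturated signal is only a lower limit of the level, so 12 genes had no value for the tail, and a gene saturated or not well above background on 1 array of a pair is given as "at least" where the bound points that way. The keratins Krt5, Krt14, Krt1 and Krt10, which define basal and suprabasal keratinocytes, were saturated on all 4 arrays, as the label skin requires. In RNA of whole tissue, fewer cells of a type and less RNA per cell cannot be told apart.

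In the tail, 6 of the 18 genes with a value were at least 2-fold higher in the treated array, namely Gpx2, Gpx3, Nqo1, Osgin1, Prdx3 and Slc7a11, and none was 2-fold lower. That share, 33.3%, lay near the 27.2% of all 12858 genes that were called higher in the tail, and 6.55% of all genes were called lower. The median of the 18 genes was 0.89 against 0.33 over all genes. In the back, 8 of 27 genes were higher, namely Gsr, Slc7a11, Osgin1, Keap1, Gpx3, Gpx2, Nqo1 and Sod1, and 4 were lower, namely Srxn1, Sod3, Prdx5 and Cat. The background in the back was 13.6% higher and 12.6% lower over 13461 genes, so the share of higher genes, 29.6%, was above it and the share of lower genes, 14.8%, was near it. The median in the back was 0.26 against -0.01 over all genes. Since genes are not replicates and the list was chosen with results of these arrays known, these shares describe the arrays only.

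Nqo1, Osgin1, Slc7a11, Gpx2 and Gpx3 were called higher in both skins, 5 of the 18 genes with a value in both, where 3.72% of all 12038 such genes were. The tail and back comparisons share no array. None of the 18 was called lower in both, against 1.2% of all genes, and none had opposite calls, against 3.87%. Among the 16 genes measured on all 4 arrays, Nqo1, Osgin1, Slc7a11, Gclc and Gpx2 had both treated arrays above both control arrays, where 18.6% of all genes did, and none had both treated arrays below both controls, where 7.28% did. The gap between the lower treated and the higher control array was 1.36 for Nqo1 and 1.00 for Slc7a11, but 0.08 for Osgin1, 0.06 for Gclc and 0.02 for Gpx2, all under the scanner error. Gpx2 overlapped after normexp, quantile normalization, cyclic loess and scaling to the median of detected probes, Gclc after the last 2 of these, and Osgin1 with the mean of its probes. With scaling to spike-in RNA all 5 overlapped, and of them only Gpx2 was higher in the treated tail than in its control.

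**Figure D1:**
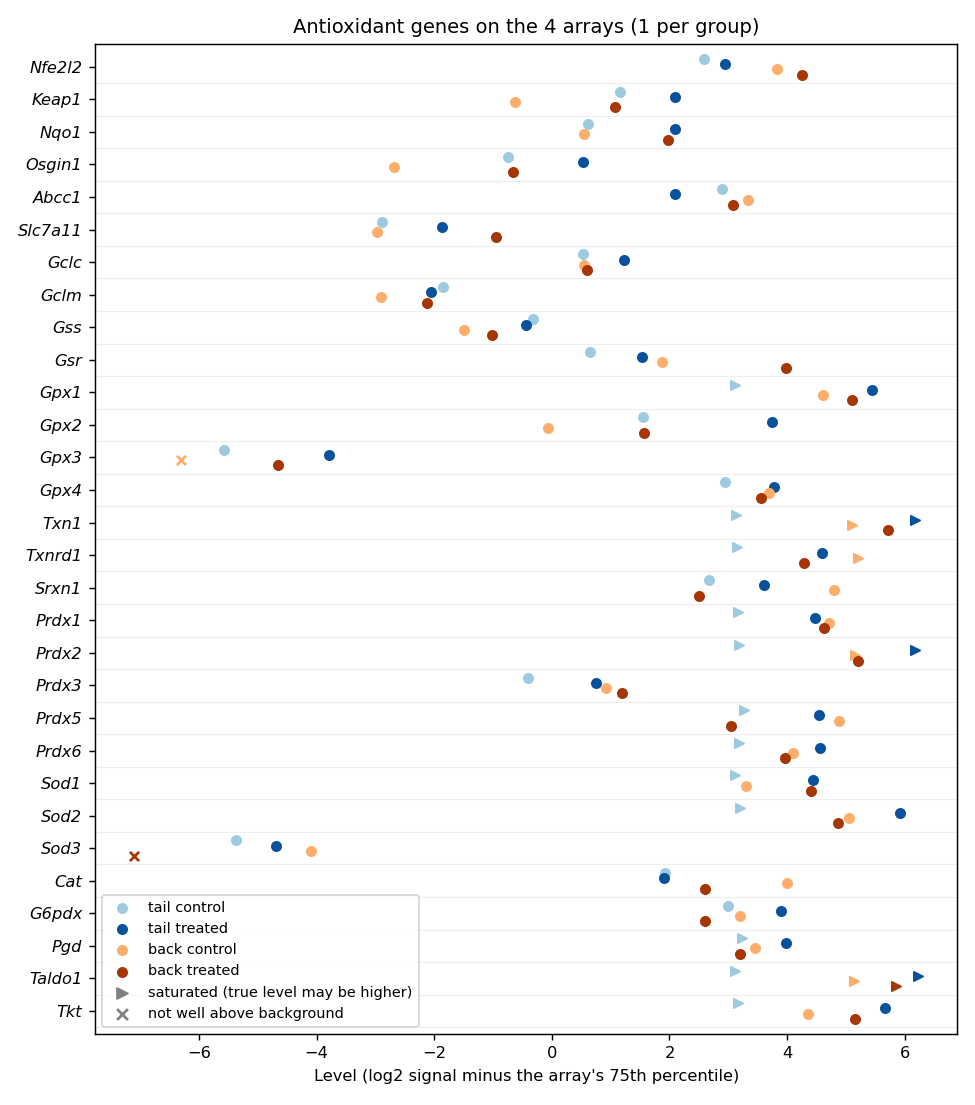
Level of each of the 30 genes on the 4 arrays, as log2 signal minus the array's 75th percentile on the horizontal axis, with 1 point per group, triangles for saturated spots and crosses for spots not well above background. The saturated genes of the tail control array form a column between 3.11 and 3.26, and for Nqo1 and Slc7a11 both treated points lie clear to the right of both control points, an order that spike-in scaling ends.

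Nfe2l2, which encodes the transcription factor NRF2, had levels of 2.60 and 2.95 in the tail control and treated arrays and of 3.82 and 4.26 in those of the back. It was within 2-fold of its control in both skins, by 0.35 in the tail and 0.44 in the back, and in the tail the sign turned with cyclic loess (-0.58), normexp (-0.29) and spike-in scaling (-1.72). Both back arrays lay above both tail arrays. A second Nfe2l2 probe gave 0.10 and 0.36. Keap1, which encodes the sensor that restrains NRF2, had levels of 1.16 and 2.09 in the tail and of -0.63 and 1.07 in the back, controls first. Its transcript was 1.70 higher in the treated back, a 3.25-fold difference, and 0.93 higher in the treated tail, under 2-fold and -1.14 with spike-in scaling. The back control array had the lowest Keap1 level of the 4, and the back treated array lay close to the tail control.

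The sites through which NRF2 acts share a core, TGACNNNGC, where N is any base. This core was searched on both strands in RefSeq promoter windows of 300 bases, from 250 before to 50 after a transcription start, in build GRCm38.p6. Windows were held for 26 of the 31 genes, and not for Abcc1, Gclc, Gsr, Prdx6 and Sod3. Of the 26 genes, 8 held the core (30.8%), against 14% of all 27025 genes with a window; by window the shares were 25% and 12.4%. The 8 genes were Nfe2l2 itself, Gclm, Prdx1, Txnrd1, Sod1, G6pdx, Srxn1 and Pgd, and in Srxn1 and Pgd the core lay at or past the start. Windows of Nqo1, Osgin1, Slc7a11, Gpx2 and Gpx3, the genes called higher in both skins, did not hold these letters, and sites farther away were not searched. A match is a description of letters and no measure of binding. The stretches before the start in which the core was found are shown for some of the 8 genes, written 5′ to 3′ along the gene's strand with the core in capitals.
Nfe2l2, chr2:75704870-75704913, minus strand: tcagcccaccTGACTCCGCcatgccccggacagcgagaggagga
Gclm, chr3:122245398-122245456, plus strand: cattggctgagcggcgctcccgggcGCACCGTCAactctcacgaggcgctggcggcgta
Prdx1, chr4:116685441-116685499, plus strand: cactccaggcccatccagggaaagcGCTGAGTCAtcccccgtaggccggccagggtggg
Sod1, chr16:90220681-90220739, plus strand: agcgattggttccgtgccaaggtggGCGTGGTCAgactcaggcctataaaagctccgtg
G6pdx, chrX:74428904-74428962, minus strand: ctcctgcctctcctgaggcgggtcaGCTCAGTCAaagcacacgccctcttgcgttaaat
In Nfe2l2 the core reads along the gene, and in the other 4 it reads on the opposite strand, as GCNNNGTCA. It ended 231 bases before the start in Nfe2l2, 125 in Gclm, 124 in Prdx1, 47 in Sod1 and 48 in G6pdx. The Prdx1 core overlaps the letters TGANTCA, the AP-1 consensus, and the other 4 do not. In the treated back, where all 5 genes shown had a value, Sod1 was higher by 1.11 and Gclm by 0.78, Nfe2l2 and Prdx1 differed by 0.44 and -0.09, and G6pdx by -0.60. Of the other genes with the core, Srxn1 was at -2.30 there, Pgd at -0.26 and Txnrd1 at -0.92 (a bound). Genes with the core in this window thus did not share a direction.

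Nqo1, Osgin1 and Abcc1 represent detoxification and export. Nqo1, the quinone reductase often used as a readout of NRF2 activity, had levels of 0.62 in the tail control and 0.55 in the back control array, and of 2.09 in the tail treated and 1.98 in the back treated array. The controls were nearly equal, the treated arrays were nearly equal, and the pairs did not overlap. Nqo1 was 1.48 higher in the treated tail (2.78-fold) and 1.43 higher in the treated back (2.69-fold). Scaling to spike-in RNA put the tail at -0.59 and the back at 0.97, below 2-fold. Osgin1, an oxidative stress-induced growth inhibitor, had levels of -0.74 and 0.53 in the tail control and treated arrays and of -2.69 and -0.66 in those of the back. It was 2.42-fold higher in the treated tail and 4.09-fold higher in the treated back, where its treated level reached about that of the tail control. Its second probe gave 0.34 in the tail and 0.95 in the back, and the mean of both probes in the tail, 0.81, was under 2-fold. Abcc1, which encodes an exporter of glutathione conjugates, had levels of 2.89 and 2.10 in the tail and of 3.33 and 3.08 in the back, controls first. It was the lowest of the 18 in the tail at -0.79, within 2-fold, and passed 2-fold lower after quantile normalization (-1.06), normexp (-1.28) and cyclic loess (-1.56). Its 2 dimmer probes gave -0.17 and -0.30 in the tail, and in the back all 3 probes lay between -0.26 and -0.02.

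Glutathione supply depends on cystine uptake, on synthesis in 2 steps and on recycling of the oxidised form. Slc7a11, the cystine importer, had levels of -2.88 and -1.88 in the tail control and treated arrays and of -2.98 and -0.94 in those of the back. On this probe the controls differed by -0.10 only, and the treated back stood highest. Back control minus tail control was 0.40 and 0.27 on the dimmer probes, and -0.92 on the brightest with spike-in scaling. Treated minus control was 1.00 in the tail, right at 2-fold. That tail value was below 2-fold under 6 of 12 alternatives and at -1.07 with spike-in scaling. In the back treated minus control was 2.04, a 4.10-fold difference. The 3 Slc7a11 probes gave similar differences, of 0.90 to 1.06 in the tail and 1.68 to 2.04 in the back. Gsr, glutathione reductase, had levels of 0.65 and 1.54 in the tail and of 1.87 and 3.99 in the back, controls first. It was 4.34-fold higher in the treated back, the largest higher value of the list there. In the back its 3 probes gave 2.12, 2.27 and 2.37, whereas in the tail they gave 0.89, 0.69 and -1.38, so no direction could be given for the tail.

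The synthesis enzymes differed less. Gclc, the catalytic subunit of the rate-limiting glutamate-cysteine ligase, had levels of 0.53 and 1.24 in the tail and of 0.55 and 0.60 in the back, controls first, and only the tail treated array stood apart, by 0.70. Gclm, the modifier subunit of that enzyme, had levels of -1.85 and -2.06 in the tail and of -2.91 and -2.13 in the back. It differed by -0.21 in the tail and by 0.78 in the back, so in each skin the subunits of 1 enzyme differed unequally, and in the tail normexp put Gclm at 1.102. Gss, the glutathione synthetase of the second step, differed by -0.13 and 0.48 with levels between -1.49 and -0.31. None of the 3 reached 2-fold in either skin.

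Glutathione peroxidases reduce peroxides with glutathione. Gpx2, the form typical of epithelia, had levels of 1.55 and 3.74 in the tail control and treated arrays and of -0.06 and 1.57 in those of the back. It was 4.56-fold higher in the treated tail, the largest value of the list there, and 3.09-fold higher in the treated back. Gpx2 was the only 1 of the 24 genes with a value in the tail that stayed above 0 with spike-in scaling, at 0.12. Gpx3, the secreted plasma form, was dim, with signals of 152 and 65.8 in the tail control and treated arrays and of 23.5 and 47.7 in those of the back, the third of these not well above background. After scaling it was 3.45-fold higher in the treated tail and at least 3.14-fold higher in the treated back. Its tail value ranged from 1.102 after cyclic loess to 4.10 with normexp and was -0.28 with spike-in scaling, and normexp put the back at 0.91. Gpx4, which reduces lipid peroxides in membranes, had levels of 2.94 and 3.78 in the tail and of 3.69 and 3.56 in the back, and its differences were 0.84 and -0.14. Cyclic loess put the tail value of Gpx4 at -0.12. Gpx1, the abundant cytosolic form, was saturated in the tail control and differed by 0.49 in the back, with levels of 4.61 and 5.10.

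Peroxiredoxins also reduce peroxides, thioredoxin restores them, thioredoxin reductase restores thioredoxin, and sulfiredoxin repairs peroxiredoxins that were oxidised too far. Srxn1, sulfiredoxin, had levels of 2.67 and 3.61 in the tail control and treated arrays and of 4.80 and 2.50 in those of the back. The back control was the highest and the back treated array the lowest of the 4. Srxn1 was lower by 4.93-fold in the treated back, and its 3 probes there gave -2.30, -2.27 and -2.31. In the tail the probes gave 0.94, -0.09 and 0.55, and cyclic loess put the brightest at 0.01. Txnrd1, thioredoxin reductase, was saturated in both controls, with levels of 4.59 in the treated tail and 4.29 in the treated back, which made it at least 1.89-fold lower in the treated back. Txn1, thioredoxin itself, was marked as saturated on all arrays but the back treated, where its level was 5.72, and had no value. Its back treated signal was 63450, but another gene on that array was marked as saturated at 59840. The Txn1 level there may thus be only a lower limit.

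Among the peroxiredoxins, Prdx5, found in mitochondria, peroxisomes and cytosol, was 3.55-fold lower in the treated back, at 4.88 in the control and 3.05 in the treated array. Prdx2 was saturated on its brightest probe on 3 arrays, and its 2 dimmer probes gave -1.11 and -1.31 in the back and 0.64 and 0.17 in the tail. By those probes, which were looked at after the saturation was seen, Prdx2 was also 2-fold lower in the treated back. Prdx3, the mitochondrial form, had levels of -0.41 and 0.76 in the tail and of 0.93 and 1.19 in the back. It was 2.25-fold higher in the treated tail, with 0.90 after normexp and -0.90 with spike-in scaling, and differed by 0.26 in the back. Prdx1 and Prdx6 were saturated in the tail control and differed by -0.09 and -0.15 in the back. The dimmer Prdx6 probes gave -0.48 and 0.29 in the tail.

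Superoxide dismutases turn superoxide into hydrogen peroxide, and catalase breaks that down. Sod1, the copper-zinc enzyme of the cytosol, had levels of 3.30 in the back control and 4.41 in the back treated array, a 2.16-fold difference, and 0.65 on the log2 scale with spike-in scaling. Sod2, the manganese enzyme of mitochondria, differed by -0.19 in the back, from 5.06 to 4.87. Its back control signal, 62060, was not marked as saturated, but another gene on that array was so marked at 60230. The Sod2 level in the back control may thus be only a lower limit. Sod1 and Sod2 were saturated in the tail control, and their levels in the treated tail were 4.45 and 5.93. Sod3, the extracellular form, was dim, with signals of 176 and 35.3 in the tail control and treated arrays and of 108 and 8.77 in those of the back. The last was not well above background, which made Sod3 at least 4.06-fold lower in the treated back, and normexp put it at -0.72. In the tail Sod3 differed by 0.68, and by -0.04 after cyclic loess and 3.89 with normexp. Cat, catalase, had levels of 1.92 and 1.91 in the tail arrays and of 4.00 and 2.61 in those of the back. The treated back was 2.61-fold below its control, and the back control was the highest of the 4.

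The pentose phosphate enzymes that make or keep up NADPH were not called in either skin. G6pdx, the first and rate-limiting enzyme, had levels of 2.996 and 3.89 in the tail control and treated arrays and of 3.21 and 2.61 in those of the back, with differences of 0.89 in the tail, 0.03 there after cyclic loess, and -0.60 in the back; with spike-in scaling it was past 2-fold lower in both (-1.18 and -1.06). Pgd, the second NADPH-making step, was saturated in the tail control and differed by -0.26 in the back, and its dimmer probe gave 0.49 and -0.37. Tkt, transketolase, likewise had a value only in the back, 0.80, and its dimmer probe gave 0.79 in the tail and 0.75 in the back. Taldo1, transaldolase, was saturated on all 4 arrays. In the back Tkt was above its control and G6pdx and Pgd below theirs, each by less than 2-fold. Quantile normalization put Pgd at 0.02 there.

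**Figure D2:**
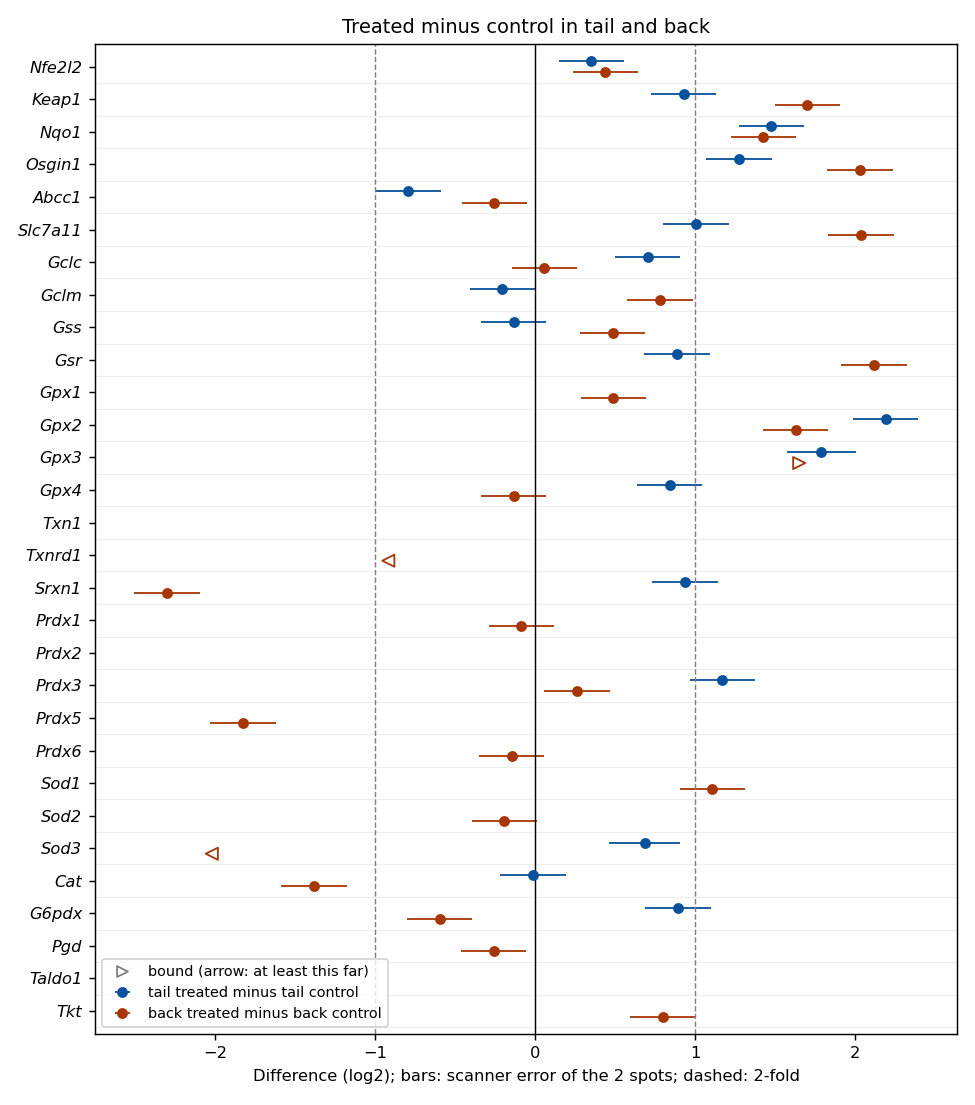
Difference between treated and control array in log2 units for each gene, blue for the tail and brown for the back, with bars for the scanner error of the spots, open triangles for bounds and dashed lines at 2-fold. In the back the genes spread from -2.30 for Srxn1 to 2.12 for Gsr, whereas in the tail they run from -0.79 for Abcc1 to 2.19 for Gpx2 and 12 of the 30 have no point.

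Of the genes, 10 were read by more than 1 probe, 46 probes standing for 30 genes in all. For Slc7a11, Srxn1 and Gsr in the back the probes of a gene gave the same call. The tail gave less agreement, with probes of opposite sign for Gsr, Srxn1 and Prdx6. Several brightest probes came close to the ceiling of the tail control array without being marked as saturated, among them Gpx4 at a signal of 55640, G6pdx at 57910 and Abcc1 at 53700. The same held on the back control array for Sod2 at 62060, Prdx5 at 54640 and Srxn1 at 51770, and on the back treated array for Txn1 at 63450. With the brightest probe that was unsaturated on all arrays, an alternative chosen after the saturation was seen, the tail median was 0.82 over 22 genes and the back median 0.35 over 22 genes.

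**Figure D3:**
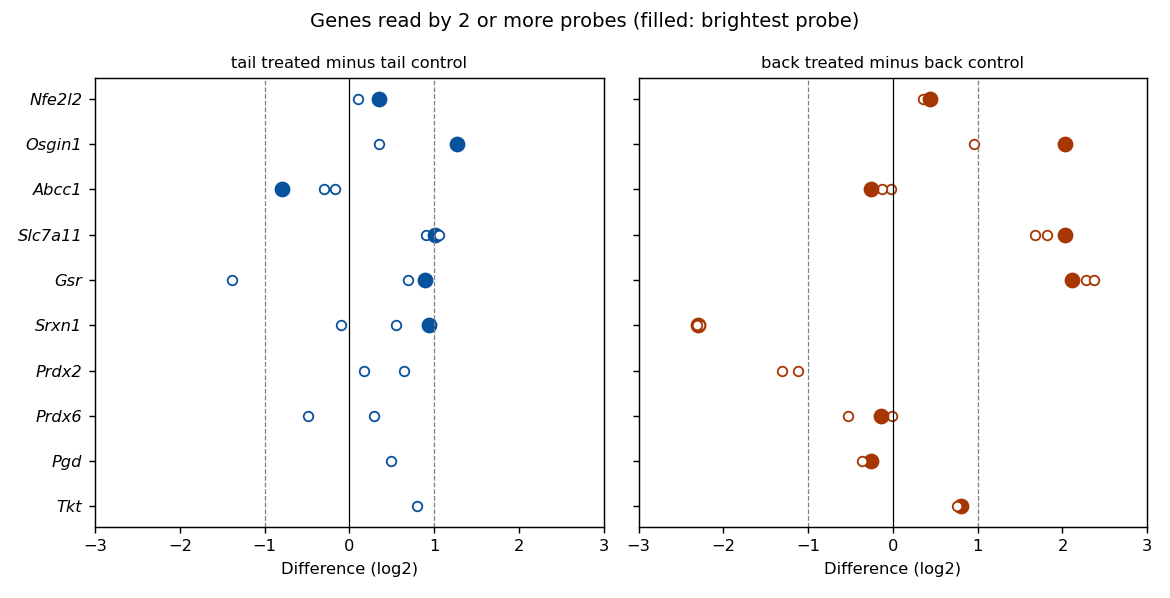
Difference between treated and control array in log2 units for each measured probe of the 10 genes with several probes, in the tail on the left and the back on the right, with the brightest probe filled and dashed lines at 2-fold. The 3 Srxn1 probes coincide near -2.30 in the back, and the 3 Gsr probes lie between 2.12 and 2.37 there but between -1.38 and 0.89 in the tail.

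The tail values depended on how the arrays were put on 1 scale, and the back values did so much less. Over all genes the tail median was 0.33 with the 75th percentile, 0.63 with normexp, 0.04 after quantile normalization, -0.10 after cyclic loess and -1.63 with spike-in scaling. The antioxidant genes lay above it by 0.56, 0.19, 0.13 and 0.49 with the 75th percentile, quantile, cyclic loess and spike-in scaling, and below it with normexp, at -0.22. In the back the list lay 0.27 above all genes with the 75th percentile, and between 0.05 and 0.30 with those 4 scalings. Of all calls in the tail, 80.6% were higher with the 75th percentile, 91.5% with normexp, 58.2% after quantile normalization, 52.3% after cyclic loess and 1.28% with spike-in scaling. Gpx2, Nqo1 and Osgin1 were 2-fold higher in the tail with each of these but spike-in scaling. In the back Gsr, Slc7a11, Osgin1, Keap1 and Gpx2 stayed 2-fold higher, and Srxn1, Prdx5 and Cat 2-fold lower, under every alternative in which they had a value. Alternatives that change only the filter or the probe choice cannot move a gene measured by 1 probe, such as Cat, which stayed at -1.38 under them. Among the scalings Cat lay between -1.84 with spike-in scaling and -1.01 after quantile normalization.

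**Figure D4:**
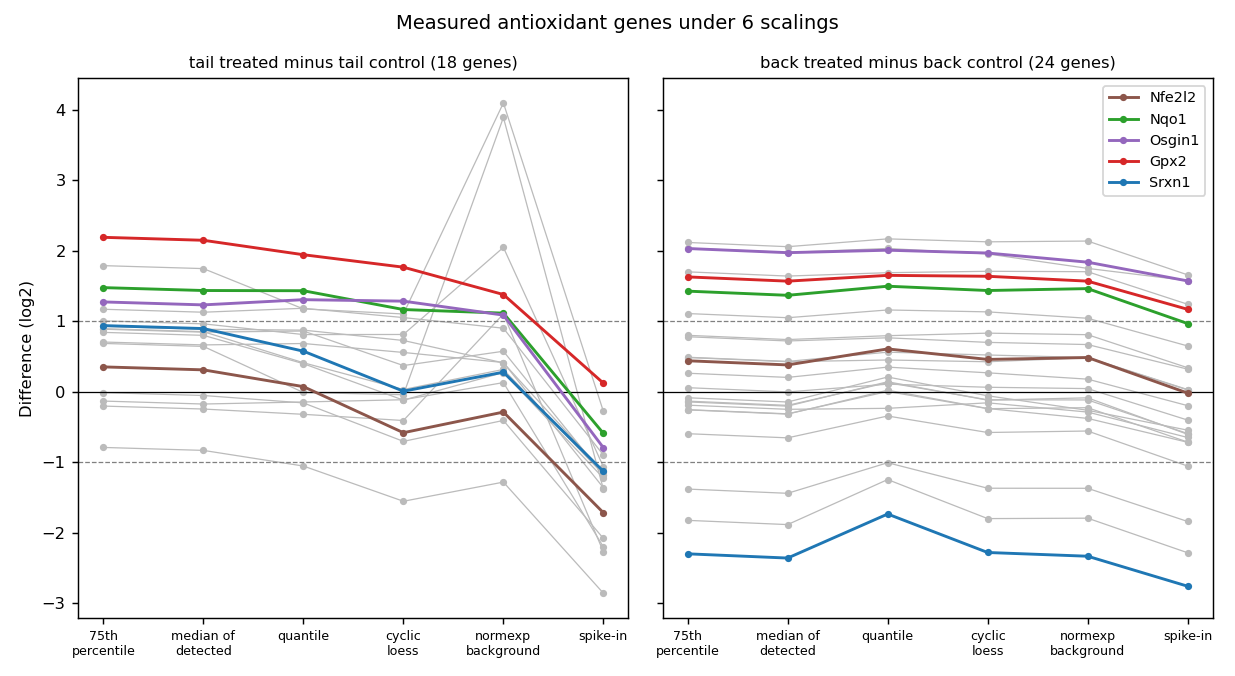
Difference between treated and control array in log2 units for the genes measured on both arrays, 18 in the tail on the left and 24 in the back on the right, under 6 ways of scaling, with 1 line per gene and 5 genes coloured. In the back Srxn1 runs between -2.76 and -1.74 and Nqo1 drops to 0.97 with spike-in scaling, and in the tail every line but that of Gpx2, at 0.12, lies below 0 with that scaling.

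A second list held 66 other genes of the NRF2, glutathione and thioredoxin systems, of which 63 were on the array. Among the 44 with a tail value, 6 were higher (13.6%) and 2 lower (4.55%), both shares under those of all genes, and the median was 0.15. Higher by the largest differences were Ggt1, which breaks down extracellular glutathione, at 2.15, the aldo-keto reductase Akr1c13 at 1.56 and the cationic amino acid transporter Slc7a1 at 1.34. The lower ones were the thioredoxin inhibitor Txnip at -1.55 and the NRF2 partner Mafk at -1.01. Among the 56 with a back value, 12 were higher (21.4%) and 10 lower (17.9%), both shares above those of all genes, and the median was -0.00. The aldo-keto reductases Akr1b8 and Akr1b10 were 2.97 and 2.94 higher there, and the conjugate exporter Abcc3 was 2.84 higher. Nfe2, a relative of NRF2 of blood cells, was at -2.997, the ligase subunit Cul3 at -1.67 and the NADPH-making malic enzyme Me1 at -1.67. Keap1 was higher and Cul3 lower in the treated back array, while Rbx1, another gene of that ligase named after its values were seen, was at -0.07. Degradation of NRF2 was not measured. Hmox1, the heme oxygenase widely used as a marker of oxidative stress and named after its values were seen, was at -1.63 in the back and saturated in the tail control. In both skins the list had genes past 2-fold in each direction.

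Markers of other cells differed on the same arrays, and their values are given with the scaling of the levels only. Over all genes, 27.2% were called higher in the tail and 13.6% in the back. The all-gene tail median was 0.33 with that scaling, 0.63 with normexp, -0.10 after cyclic loess and -1.63 with spike-in scaling. Spike-in scaling took Gpx2 in the tail from 2.19 to 0.12. How far the marker values depend on the scaling was not tested. In the treated tail all 4 red blood cell markers with a value were higher, with a median of 2.74, and in the treated back 1 of 4 was, with a median of 0.26. Adipocyte markers were higher in 6 of 6 cases in the tail (median 2.11), with Adipoq and Lep not well above background on either tail array, and in 1 of 7 in the back (median 0.41). Their mean level over 8 markers was -4.90 and -3.13 on the tail control and treated arrays and -4.23 and -3.73 on those of the back. Endothelial markers were higher in 4 of 4 cases in the tail (median 1.81), with Tek and Kdr not well above background on the treated array, and in 2 of 4 in the back (median 0.97). Fibroblast markers were higher in 4 of 6 cases in the tail (median 1.22) and in the back 3 were higher and 1 lower of 6 (median 0.40). Neutrophil markers were higher in 5 of 6 cases in the tail (median 3.18) and in 4 of 6 in the back (median 2.13), 3 of the 6 being bounds in each skin. Macrophage markers were higher in 3 of 6 cases in the tail and 3 of 7 in the back, sebocyte markers in 4 of 6 and 3 of 6, and skeletal muscle markers in 5 of 7 and 3 of 6. The suprabasal markers Ivl and Krt2 were at -1.98 and -6.54 in the back, and in the tail Ivl was at 0.09 and Krt2 was saturated. The basal integrin Itga6 was at 1.69 in the back and, the only basal marker with a value there, at -2.05 in the tail. Gpx3 and Sod3 are made by stromal and fat cells and Prdx2 and Cat are abundant in red blood cells. The part of these cell types in the values above was not tested.

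The untreated skins differed in these genes as well. Back control minus tail control had 6 of 18 genes higher (33.3%) and 5 lower (27.8%), against 27.4% and 17.2% of all 12798 genes, with a median of 0.11 against 0.19. Higher in the back were Srxn1 (2.12), Cat (2.07), Prdx3 (1.34), Sod3 (1.27), Nfe2l2 (1.23) and Gsr (1.22). The other 2 Gsr probes gave 0.75 and -0.98, so no direction could be given for Gsr, and the other 2 Srxn1 probes gave 0.69 and 1.25. Lower in the back were Osgin1 (-1.95), Keap1 (-1.79), Gpx2 (-1.61), Gss (-1.18) and Gclm (-1.06). This comparison shares the back control array with that of the treated back, and the tail control array with that of the treated tail, so their values are not independent. Calls under 2-fold in an alternative were Nfe2l2 at 0.35 after cyclic loess, 0.71 after quantile normalization and 0.41 with spike-in scaling, and Gsr at 0.72 after cyclic loess, 0.33 with the mean of probes and 0.40 with spike-in scaling. Sod3 was at 0.97, 0.85 and 0.45 after cyclic loess, quantile normalization and spike-in scaling, Prdx3 at 0.52 with spike-in scaling and Gclm at -0.82 with normexp. Nqo1, Slc7a11 and Gclc differed by -0.07, -0.10 and 0.02 between the untreated skins, and by -0.89, -0.92 and -0.805 with spike-in scaling. Cell markers differed as well, with values given for the scaling of the levels only. In the back control, macrophage markers were higher in 6 of 6 cases (median 2.94) and neutrophil markers in 3 of 5 (median 2.05). Of 6 fibroblast markers 5 were higher and 1 lower (median 1.89), and of 6 adipocyte markers 2 were higher and 1 lower (median 0.59). Melanocyte markers were lower in 3 of 3 cases (median -4.46). The part of these cell types was not tested.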

How the data were processed

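Total RNA (200 ng per sample, per the labels' protocols) was labelled with Cy3 and hybridised to 4 Agilent arrays of 1 slide. Position on the slide cannot be told apart from the group. Spot intensity, deposited by the authors as processed signal with its error, was background corrected within each array by Feature Extraction 10.5.1.1, per the file headers, and not normalized between arrays; the submitters' processing notes name version 10.7. Log2 values in the authors' deposited table served as an alternative; their array medians were -0.28, 0.10, -0.03 and 0.08 in the order of the labels, and why they were centred so is not given in the sources used here. Tail differences in that table equalled those of the processed signal, but for a constant, within 0.001 for 100% of probes. Outlier spots were left out and log2 signals of repeated spots averaged. Of 41174 probes, 24375 (59.2%) were named with 1 symbol by looking up the accession in RefSeq (GRCm38.p6); the arrays' own build is mm8. Members and lists were chosen with earlier results of these data known. All list members are named, and of the second list up to 3 per direction and skin, taken by size among measured differences past 2-fold. The calling code was run on simulated arrays with planted differences and scanner error only. These had neither the brightness gap between the arrays nor variation between animals, so that run does not bear on those limits. Alternatives used limma 3.58.1 under R 4.3.3, and the rest Python 3.11.15.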

Additional observations from a re-analysis of the deposited data

Results flagged for a closer look

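Srxn1, Sod3 and G6pdx had differences of opposite sign in the skins, each larger than its scanner error. Srxn1 was at 0.94 in the tail and -2.30 in the back, Sod3 at 0.68 and -2.02 (a bound), and G6pdx at 0.89 and -0.60. In the tail all 3 were under 2-fold and came to between -0.04 and 0.03 after cyclic loess. With spike-in scaling the tail values were -1.13 for Srxn1, -1.39 for Sod3 and -1.18 for G6pdx. All 3 were below 0 in the back as well with that scaling, so the signs no longer differed. A dimmer Srxn1 probe gave -0.09 in the tail and another 0.55. The difference between the skins was not tested, because each group has 1 array.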

How the results depend on the processing

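In the back the counts of higher and lower genes stayed within 6 to 8 and 3 to 6 under all 12 alternatives, some of which change only the filter or the probe choice. The back median was -0.30 with spike-in scaling and otherwise between 0.10 and 0.35. The brightest unsaturated probe, chosen after seeing the data, changed none of these counts by over 1.5 times. In the tail the count of higher genes was 17 of 30 with no filter, where saturated spots enter at their ceiling, and 0 of 24 with spike-in scaling. Over all genes 6243 of 16862 and 134 of 14482 were higher with these settings, in the same order. Lower genes in the tail numbered 1 of 19 after cyclic loess, 1 of 19 with normexp, 2 of 24 after quantile normalization and 14 of 24 with spike-in scaling. Over all genes 1713 of 13668, 534 of 12979, 1518 of 13760 and 10347 of 14482 were lower, in the same order. The tail median was 0.03 after cyclic loess, 0.23 after quantile normalization, 0.41 with normexp, 1.22 with no filter and -1.14 with spike-in scaling. Spike-in scaling, over 6 spike-in probes, reversed 5 of the 6 tail calls, to -0.28 for Gpx3, -0.59 for Nqo1, -0.80 for Osgin1, -0.90 for Prdx3 and -1.07 for Slc7a11. Between the untreated skins, cyclic loess gave 3 of 22 genes higher and a median of -0.21, and quantile normalization 8 of 25 lower and -0.23. Spike-in scaling gave 2 of 20 higher and -0.62, and no filter 15 of 30 higher and 1.06. Over all genes the counts were 2572 of 13515 higher, 2864 of 13562 lower, 1471 of 13413 higher and 5926 of 16862 higher, in the same order. The medians over all genes were -0.13, -0.10, -0.58 and 0.48. The cause was not tested. Naming probes by a printed gene name was not run, because the array files used here carry accessions only. No paired analysis was possible because each group has 1 array. The number of arrays limits the precision, and saturation of the tail control array limits the tail.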
